A study of Mus musculus with 20 samples.

Results

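The loss of FIGLA and the loss of LHX8 were set against each other in newborn mouse ovaries, gene by gene, to find transcripts that depended on one factor more than on the other. The comparison used the 12 of 20 libraries of the series that came from whole ovaries on postnatal day 0 (P0, the day of birth), 3 in each of 4 groups. They were the Figla knockouts (Figla-/-) with their controls and the Lhx8 knockouts (Lhx8-/-) with theirs, all on the strain labelled B6D2F1 inbred and with no treatment given in the labels. The genotype field calls the controls heterozygous (Figla+/- and Lhx8+/-), while the names of the Lhx8 control libraries say WT, so they are called controls here. The labels do not state which part of either gene was deleted, whether ovaries were pooled, or which samples are independent animals, and a p-value here weighs a difference against the spread among these samples, part of which may be technical.

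Groups followed the library names. The title and genotype fields disagreed with the library name for 2 of 6 Figla libraries and for 6 of 6 Lhx8 libraries, and grouping both sets by title turned the direction of 12 of the 24 called genes that were named by rule here, so each difference rests on the library names. The Figla libraries covered whole transcripts (Nextera kit) and the Lhx8 libraries read transcript 3' ends (QuantSeq kit), so kit and knockout cannot be told apart in a comparison of levels. Each effect was therefore a log2 ratio of knockout to control within 1 kit, and the result for a gene was the Figla effect minus the Lhx8 effect. Library totals ran from 10163849 to 13408022 counts in the Figla set and from 8297204 to 9978350 in the Lhx8 set. Genes with at least 1 count numbered 26462 to 27824 per Figla library and 21080 to 21702 per Lhx8 library. Mitochondrial transcripts took 1.73% to 3.31% of counts in the Figla set and 5.47% to 6.52% in the Lhx8 set. The filter on low counts left 14185 genes in both sets, and 3136 genes that passed in the Figla set alone and 1089 in the Lhx8 set alone were not compared.

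FIGLA is a basic helix-loop-helix protein that binds E-boxes (CANNTG) with a ubiquitous E protein as partner, and LHX8 is a LIM homeodomain protein. Both act in oocytes at the time when germ cell cysts break down and primordial follicles form, and mice lacking either gene lose their oocytes soon after birth. Their known targets include the zona pellucida genes, whose products form the egg coat, and maternal effect genes, whose products act in the early embryo. Because whole ovaries were measured, fewer oocytes and less of a transcript per oocyte cannot be told apart.

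Most genes had effects that could not be separated. The difference of the effects passed the threshold for 70 of 14185 genes, 0.493% of those tested (difference of 2 edgeR quasi-likelihood estimates, Benjamini-Hochberg adjusted p at or under 0.05). At an unadjusted p under 0.05 there were 1174. The Figla effect was below the Lhx8 effect for 55 genes (0.388%) and above it for 15 (0.106%). The difference had a median of -0.04 over all genes tested, with an interquartile range of -0.29 to 0.17 and a median standard error of 0.28. For 8527 genes (60.1%) the 95% interval of the difference lay within -1 to 1, that is within a 2-fold change either way. Across genes the 2 effects had a Pearson correlation of 0.75 and a Spearman correlation of 0.64, given as a description because genes are not independent replicates.

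The genes that fell in both sets show how far the 2 losses ran together. Taken alone, 1801 genes (12.7%) were lower without Figla and 1045 (7.37%) were lower without Lhx8, while 860 (6.06%) and 459 (3.24%) were higher. Of the lower genes, 786 were shared, which is 43.6% of the first and 75.2% of the second. Among those 786, the difference was called for 19 genes with a deeper fall without Figla and for 2 with a deeper fall without Lhx8. The interval lay within -1 to 1 for 490 more, and for 275 it was too wide to place. Of the 191 genes higher in both sets, 1 had a called difference, Lef1, which rose more without Figla. Only 8 genes passed in both sets with opposite signs, and the difference was called for all 8.

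**Figure D1:**
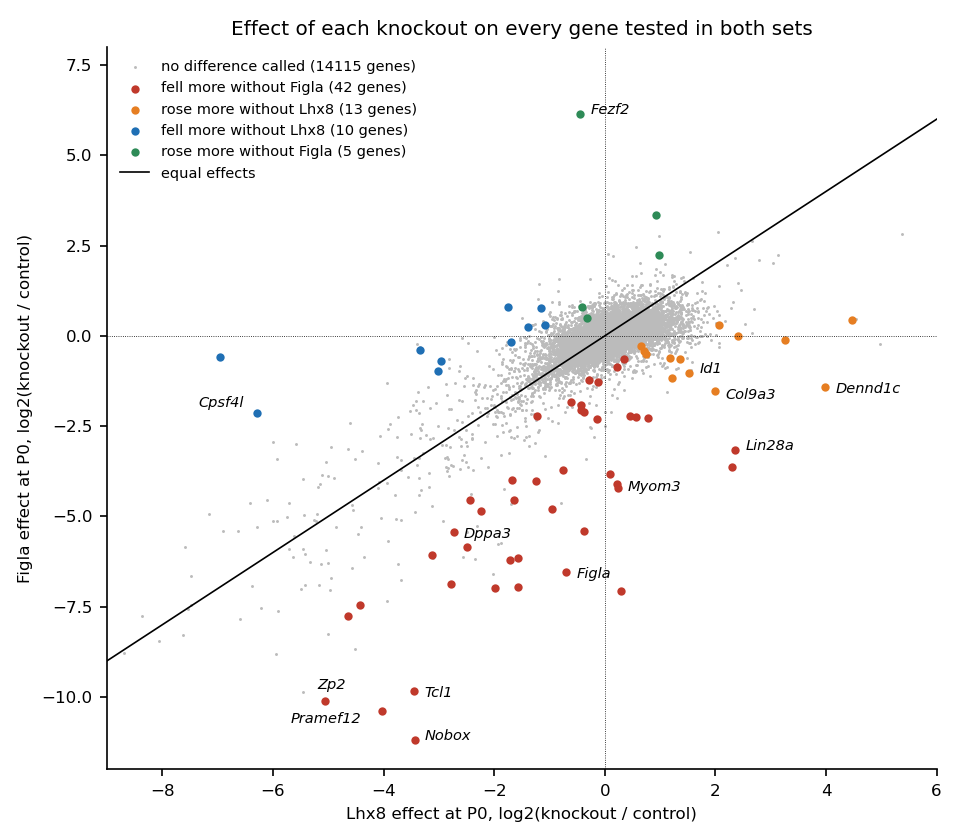
The Figla effect (vertical axis, log2 ratio of knockout to control) is plotted against the Lhx8 effect (horizontal axis, same unit) for the genes tested in both sets, grey where no difference was called and coloured for the 70 called genes by class. The line marks equal effects; 42 genes that fell more without Figla lie below it on the lower side, and Fbxw18, not called, falls outside the left edge.

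The called genes were sorted by the larger of their 2 effects. Of the 70, 42 fell more without Figla, 13 rose more without Lhx8, 10 fell more without Lhx8 and 5 rose more without Figla. The median difference in these classes was -3.05, -2.38, 2.14 and 1.27. Calls that kept their sign when each of the 12 libraries was left out in turn numbered 26, 6, 5 and 1 in the same order, 38 in all. Protein-coding genes made up 88.6% of the called genes and 90.1% of those tested, and the median length of the called genes was 3489.5 bases against 4061 over all genes tested. Values just inside the threshold were those of Abcc4 (adjusted p = 0.0469) and Pkd1l1 (0.0469), and just outside it those of Sis (0.0530) and Lamc3 (0.0540), all from the edgeR estimates.

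The deleted genes were read first. Figla, on chromosome 6, stood at 32.5, 35.5 and 39.5 CPM (gene counts scaled by the total count of the library) in the Figla controls and at 0.175, 0.647 and 0.295 in the Figla knockouts. In the Lhx8 set it stood at 76.3, 119 and 89.7 CPM in controls and at 66.1, 74.9 and 42.5 in knockouts. The Figla groups lay far apart, and the Lhx8 groups were close, with all 3 knockouts below the lowest control. The Figla effect was -6.54 ± 0.29 (SE), the Lhx8 effect -0.70 ± 0.21 and the difference -5.84 ± 0.36 (edgeR, adjusted p = 1.34e-08), so Figla is a called gene by the design itself. Lhx8, on chromosome 3, fell in both sets, by 1.50 on the log2 scale without Figla and by 2.01 without Lhx8. Its level was 161, 144 and 196 CPM in Figla controls against 52.2, 62.7 and 65.6 in Figla knockouts, and 90.0, 101 and 89.4 CPM in Lhx8 controls against 18.1, 31.0 and 23.0 in Lhx8 knockouts. Its difference of 0.51 was not called (95% interval 0.01 to 1.02, edgeR adjusted p = 0.596), so the fall of Lhx8 reads in its own knockouts was not told apart from that in the Figla knockouts. Where those reads fall within the gene cannot be told from counts per gene.

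Nobox, a homeobox gene of the oocyte, had the largest difference of the genes tested. It stood at 150, 163 and 173 CPM in Figla controls and at 0, 0.0809 and 0.0984 in Figla knockouts, and at 153, 184 and 153 CPM in Lhx8 controls and 5.63, 27.4 and 13.6 in Lhx8 knockouts. Both knockout groups lay below their controls with no overlap, but the Figla knockouts were at the limit of detection and the Lhx8 knockouts were not. With 2 counts in the Figla knockouts against 5887 in controls, the ratio of controls to knockouts was 2803 (95% counting interval 776 to 23153). The Figla effect was -11.21 ± 0.26, the Lhx8 effect -3.44 ± 0.43 and the difference -7.77 ± 0.51 (edgeR, adjusted p = 1.36e-07). The other oocyte factors did not separate the knockouts. Sohlh1, Sohlh2 and Taf4b had differences of -0.20 (95% interval -0.79 to 0.40), -0.40 (-1.03 to 0.23) and -0.14 (-0.59 to 0.30), and Foxo3 had 0.43 (0.03 to 0.84, edgeR adjusted p = 0.583). Of 7 oocyte transcription factors tested, 2 were called, against 0.493% of all genes tested: Nobox, and Figla, which is the deleted gene itself. Both had the lower value without Figla, and the median difference of the list was -0.20.

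**Figure D2:**
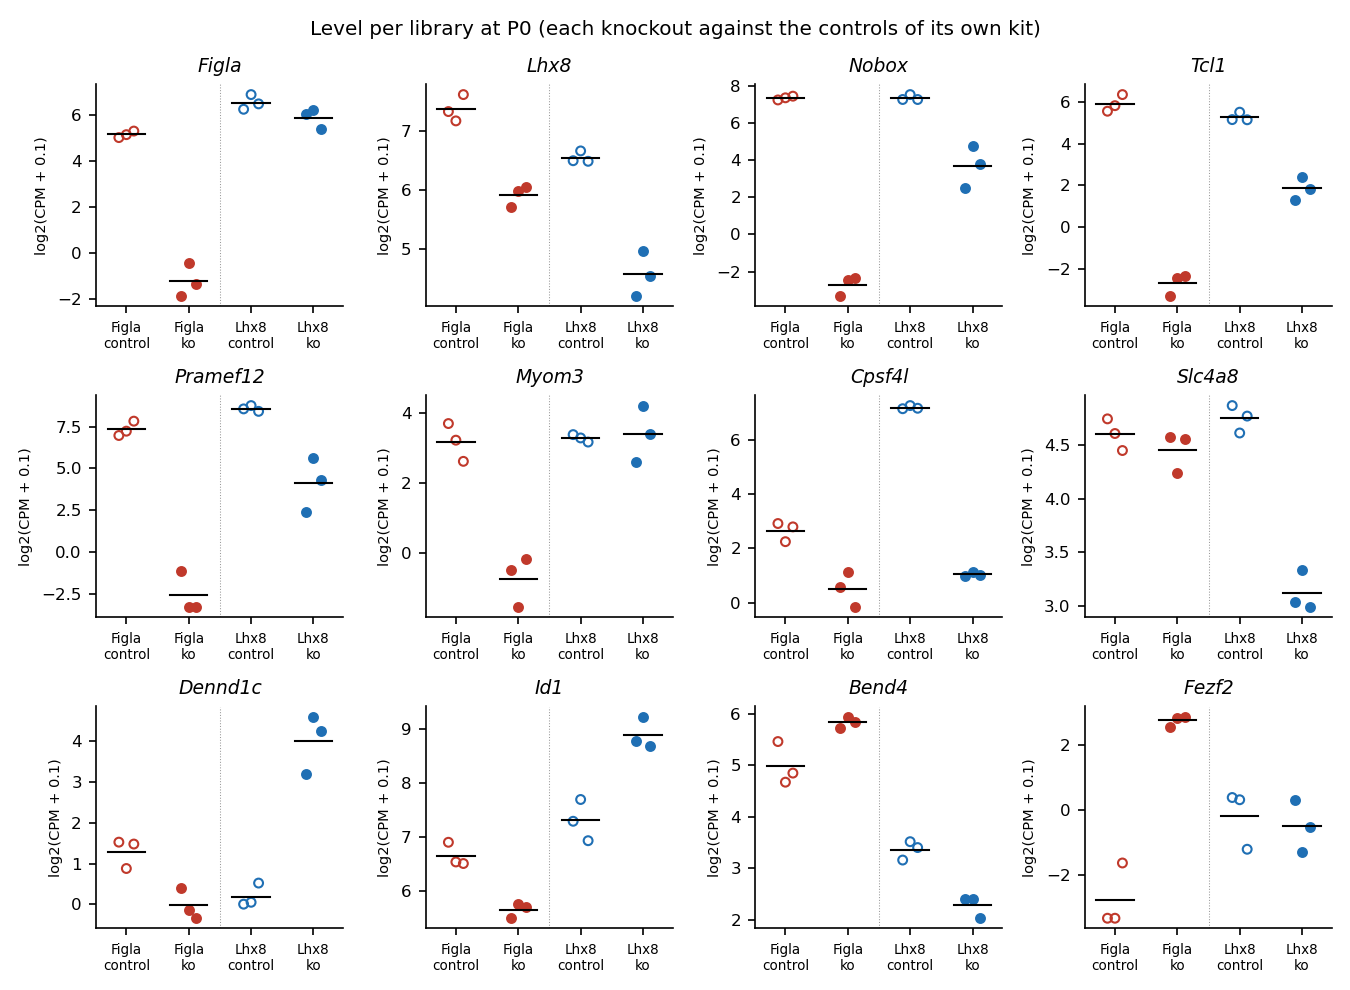
Level of 12 genes in each library at P0, as log2(CPM + 0.1), with open points for controls, filled points for knockouts, red for the Figla set, blue for the Lhx8 set and a bar at the mean of 3 libraries. The 2 sets were made with different kits, so a knockout is to be read against its own controls; Nobox, Tcl1 and Pramef12 fell in both sets and further in the Figla knockouts, while Myom3 fell in the Figla set and Cpsf4l fell further in the Lhx8 set.

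Some maternal genes of 1 list were called and others were not. Tcl1, which encodes a coactivator of AKT kinases, fell from 47.2, 56.8 and 82.2 CPM to 0, 0.0809 and 0.0984 without Figla, and from 35.7, 45.7 and 35.5 CPM to 2.40, 5.20 and 3.50 without Lhx8. Neither pair of groups overlapped. Its difference was -6.38 ± 0.51 (edgeR, adjusted p = 7.70e-07), and the Figla ratio of controls to knockouts was 1088 (counting interval 301 to 8986) with 2 knockout counts. Pramef12, a PRAME family gene of oocytes, fell from 126, 150 and 228 CPM to 0.351, 0 and 0 without Figla, and from 380, 436 and 343 CPM to 5.21, 48.9 and 19.4 without Lhx8. Again each knockout lay below its controls, and the Lhx8 knockouts kept a measurable level that varied among them. Its difference was -6.35 ± 0.77 (edgeR, adjusted p = 9.27e-05). Dppa3, a maternal factor that protects DNA methylation in the zygote, fell from 106, 143 and 234 CPM to 3.51, 3.40 and 4.62 without Figla and from 334, 530 and 453 CPM to 42.2, 95.4 and 67.4 without Lhx8, a difference of -2.69 ± 0.43 (edgeR, adjusted p = 0.00203). The call of Dppa3 was lost in limma-voom (adjusted p = 0.0539). These were the 3 called members of 10 tested maternal genes outside the subcortical maternal complex, against 0.493% called over all genes tested. The list's median difference was -0.90. Bcl2l10 (-3.86), H1foo (-1.51) and Btg4 (1.53) were not called. The value of Bcl2l10 lay beyond that of Dppa3, and called members were not tested against uncalled ones.

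Among the zona pellucida genes, Zp2 was called and Zp1 and Zp3 were not, against 0.493% called over all genes tested. Zp2 stood at 64.5, 73.9 and 144 CPM in Figla controls with no count in any Figla knockout, and at 55.3, 72.9 and 72.6 CPM in Lhx8 controls against 0.104, 3.85 and 2.29 in Lhx8 knockouts. Every knockout was far below its controls, and the Figla knockouts were at least 1112-fold lower (floor of 3 counts over the group). Entered at that bound, its difference was -5.07 ± 0.94 (edgeR, adjusted p = 0.0160), and the call was kept in 8 of 12 fits with 1 library left out. It was lost without any single Figla knockout (edgeR adjusted p from 0.114 to 0.159), which lowers the bound by construction, and without Lhx8 knockout replicate 2 (0.0886). The 3 other test methods lost it too, DESeq2 (adjusted p = 0.232), limma-voom (0.367) and 1 edgeR model of the 12 libraries (0.114). Zp1 had no count in either knockout group, which leaves the order of its 2 effects undecided. Zp3 had no count in the Figla knockouts and 6 in the Lhx8 knockouts, and its difference entered at the bound was -0.68 (95% interval -3.66 to 2.30). Other groups of egg genes had no called member, with 0 of 6 in the subcortical maternal complex, which anchors maternal proteins at the egg cortex, 0 of 4 oocyte secreted and egg surface genes and 0 of 4 in the Fbxw cluster. The same held for 0 of 2 oocyte Nlrp paralogs (median difference -2.83) and 0 of 5 Oas1 paralogs (median -0.18). With 0.493% called over all genes tested, such counts of 0 are no result about these genes. Their values were wide, as for Nlrp5 (-4.42, edgeR adjusted p = 0.22) and Padi6 (-0.04, adjusted p = 0.99) in the complex, Izumo1r (-3.82, adjusted p = 0.0603) and Gdf9 (1.29, adjusted p = 0.50) among the surface and secreted genes, and Fbxw18 (3.34, adjusted p = 0.14). Counts of Nlrp, Oas1 and Fbxw paralogs are uncertain since a read that matches several copies may have been dropped or placed on the wrong one.

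**Figure D3:**
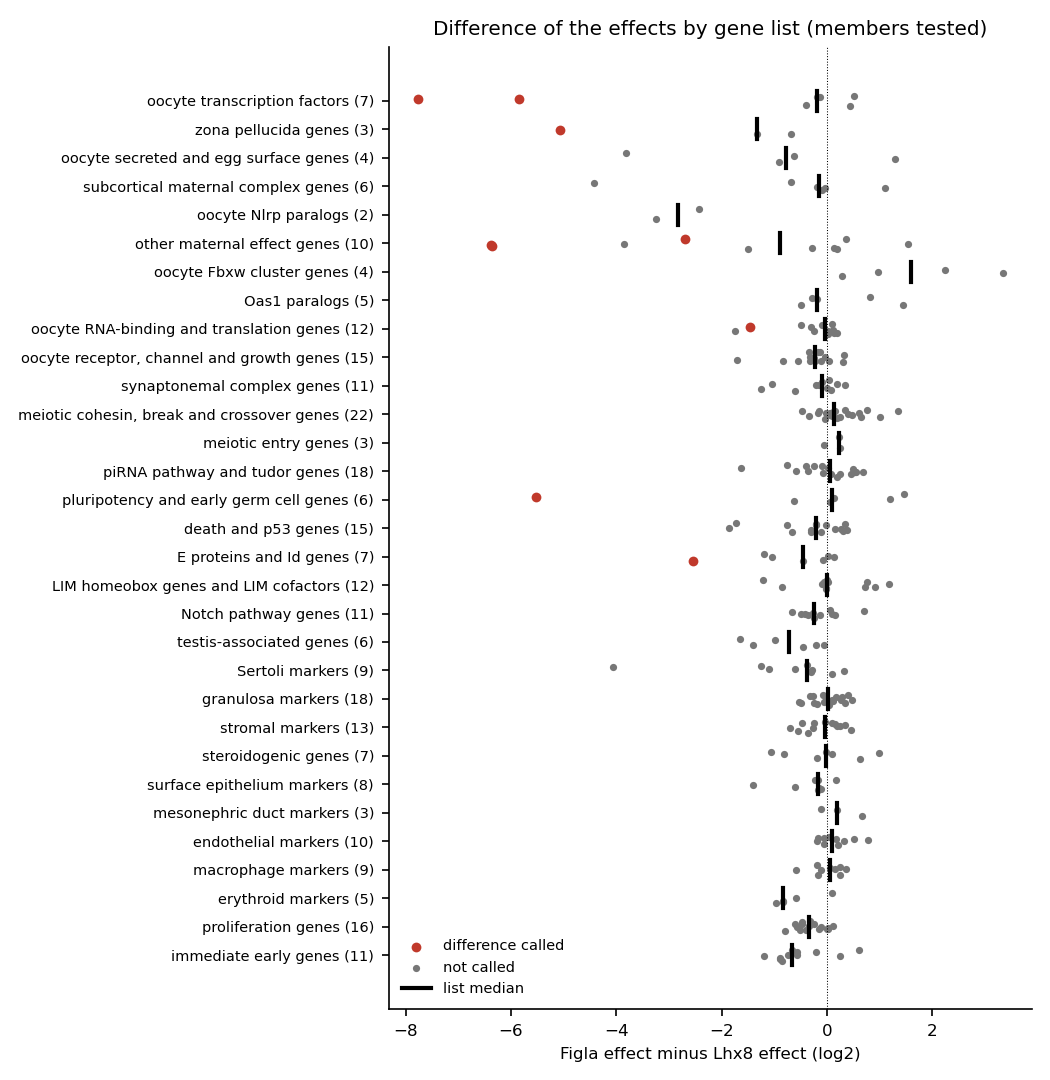
Figla effect minus Lhx8 effect (log2) for each tested member of 31 gene lists, with called members in red, others in grey, a bar at each list's median and the number tested in brackets. Called members, 9 in all, occur in 6 lists, and all of them lie below 0.

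Of the 42 genes that fell more without Figla, 31 had effects below 0 in both sets, and 11 had an Lhx8 effect above 0. When each set was tested alone, 19 of the 42 were lower in both, against 786 of the 14185 genes tested. The class was sorted on these same effects, so the counts are a description of it. The median effect of the class was -4.38 without Figla and -0.86 without Lhx8. Cnpy1, of the canopy family of FGF signalling regulators, stood at 104, 99.0 and 139 CPM in Figla controls and 1.14, 1.62 and 2.16 in Figla knockouts, and at 87.0, 84.5 and 50.3 CPM in Lhx8 controls and 28.2, 30.0 and 19.8 in Lhx8 knockouts. It fell in both knockouts with no overlap, and the difference was -4.57 ± 0.33 (edgeR, adjusted p = 3.29e-08). Vil1, which encodes the actin-bundling protein villin, had -3.36, and Tsga8, a testis-associated gene, had -4.08, a call lost in 1 edgeR model of the 12 libraries (adjusted p = 0.0775). Both are overlapped by a gene with more counts on the other strand, Usp37 and Dmd, and strand was not used in counting. Figla, Nobox and Dppa3 all lie on chromosome 6, which held 6 of the 70 called genes (8.57%) and 5.21% of the genes tested. Other members of the class with effects below 0 in both sets were Esrp1, a splicing regulator (-2.79), Nos1, a nitric oxide synthase (-2.30), Ttn, which encodes titin (-2.09), Ptpn18, a tyrosine phosphatase (-2.60), Mat1a, a methionine adenosyltransferase (-2.94), and Phactr3 (-2.91).

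Other genes of the class fell without Figla and had an Lhx8 effect above 0. Myom3, a myomesin gene of muscle sarcomeres, stood at 12.9, 9.24 and 6.04 CPM in Figla controls and at 0.614, 0.243 and 0.787 in Figla knockouts. In the Lhx8 set it was at 10.3, 9.66 and 8.89 CPM in controls and at 5.94, 18.4 and 10.5 in knockouts, groups that overlap. The difference was -4.33 ± 0.57 (edgeR, adjusted p = 0.000206). The unnamed lincRNA Gm44601 had the second-largest difference in the data, -7.35 (edgeR, adjusted p = 7.70e-07), with 741 counts in Figla controls and 5 in Figla knockouts against 159 in Lhx8 controls and 196 in Lhx8 knockouts. Aass, an enzyme of lysine breakdown, Snai3, a SNAI family zinc finger gene, and Pkd1l1 had differences of -2.82, -2.68 and -3.05 with Lhx8 effects of 0.56, 0.46 and 0.79. None of these Lhx8 effects passed alone (edgeR adjusted p = 0.285, 0.376 and 0.376), and the Lhx8 groups overlapped for each gene. The call of Pkd1l1 was kept in 4 of 12 fits with 1 library left out. Lin28a, an RNA-binding protein that blocks let-7 maturation, fell from 7.15, 12.3 and 30.4 CPM to 1.84, 1.86 and 1.97 without Figla. In the Lhx8 set it was at 1.80, 2.60 and 1.89 CPM in controls and at 2.81, 27.4 and 3.50 in knockouts, so 1 library carried the Lhx8 side, and the difference of -5.53 (edgeR, adjusted p = 0.00529), or -3.68 without that library, was called in 10 of 12 fits with 1 library left out, and not without Lhx8 control replicate 1 (edgeR adjusted p = 0.0561) or 3 (0.0600). In limma-voom the difference was -4.49 and not called (adjusted p = 0.129). In contrast, Lsm14b, which encodes an RNA-binding protein of messenger RNA storage, had an Lhx8 effect below 0 that did not pass alone (-0.44). Its difference was -1.47 ± 0.29 (edgeR, adjusted p = 0.0249). It was the called member of 12 oocyte RNA-binding genes tested, against 0.493% called over all genes tested. Its call was lost without Figla control replicate 3, Lhx8 knockout replicate 2 or Lhx8 control replicate 1 or 3 (edgeR adjusted p from 0.0631 to 0.149), in 1 edgeR model of the 12 libraries (0.0719) and with the 4 Figla libraries whose labels agree (0.0574).

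Lhx8 knockout replicate 2 kept higher levels of many of these genes than the other 2 Lhx8 knockouts, as for Nobox (27.4 CPM against 5.63 and 13.6). It was the highest of the 3 for 29 of the 42 genes that fell more without Figla, 69.0% against 29.1% over all genes tested. The share was 69.2% (9 of 13) for the genes that rose more without Lhx8, where 8 of 13 calls remained without that library, and 50.0% (5 of 10) for those that fell more without Lhx8. Of the genes that fell more without Figla, 31 of the 42 calls remained without it and the median difference of the class was -2.69. The part of this library in the remaining values was not tested.

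Genes that fell more without Lhx8 were fewer. Cpsf4l, related to a subunit of the cleavage and polyadenylation complex, stood at 144, 156 and 146 CPM in Lhx8 controls and at 1.88, 2.08 and 1.93 in Lhx8 knockouts, and at 7.49, 4.66 and 6.86 CPM in Figla controls and 1.40, 2.10 and 0.787 in Figla knockouts. Both knockouts lay below their controls, and the Lhx8 effect of -6.29 ± 0.17 was beyond the Figla effect of -2.15 ± 0.36 by 4.15 ± 0.39 (edgeR, adjusted p = 3.50e-05). Dbndd1, of the dysbindin domain family, fell in both sets, with effects of -0.98 without Figla and -3.01 without Lhx8 and a difference of 2.03 ± 0.29 (edgeR, adjusted p = 0.000628). Slc4a8, a sodium-driven bicarbonate exchanger, differed in another way. It stood at 29.2, 24.4 and 27.2 CPM in Lhx8 controls and 8.13, 9.98 and 7.83 in Lhx8 knockouts, while its Figla controls (26.8, 24.3 and 21.8 CPM) and Figla knockouts (23.8, 18.8 and 23.4 CPM) overlapped. Its difference was 1.54 ± 0.24 (edgeR, adjusted p = 0.00203). Spata33, a gene of sperm mitochondria and motility, had 1.38 ± 0.24 (edgeR, adjusted p = 0.00458), with an Lhx8 effect of -1.08 and a Figla effect of 0.30. A530032D15Rik, annotated as protein-coding, with 1 count in the Lhx8 knockouts against 172 in controls, had a ratio of 173 (counting interval 30.7 to 6880) and a difference of 6.36, and a gene on the same strand, C130026I21Rik, overlaps it.

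A further 13 called genes had their larger effect above 0 in the Lhx8 set. Taken alone in that set, 12 of them passed, against 459 (3.24%) higher over all genes tested. The class was sorted on that effect, so this count is no separate result. The gene of the 13 that did not pass was St6galnac2, a sialyltransferase. It had an Lhx8 effect of 1.22 (edgeR adjusted p = 0.0852) and a Figla effect of -1.16 that did pass (0.00354). Slc12a8, a solute carrier, stood at 0.702, 0.623 and 1.11 CPM in Lhx8 controls and at 6.98, 9.98 and 7.59 in Lhx8 knockouts, with no overlap, and at 1.26, 2.29 and 1.34 CPM in Figla controls and 1.40, 0.970 and 2.26 in Figla knockouts, with overlap. The Lhx8 effect was 3.26 ± 0.37, the Figla effect -0.10 ± 0.42 and the difference -3.37 ± 0.56 (edgeR, adjusted p = 0.00276). Esx1, an X-linked homeobox gene, had a difference of -4.02, Tc2n -2.40 and Ube2l6, a conjugating enzyme of the ubiquitin-like protein ISG15, -1.75. Their calls were kept in 8, 10 and 8 of 12 fits with 1 library left out, in that order, and Esx1 had only 7 counts in the Lhx8 controls. In the class that rose more without Figla, Fezf2, a zinc finger transcription factor known from the forebrain, was at 0, 0 and 0.224 CPM in Figla controls and at 5.79, 6.95 and 7.18 in Figla knockouts. Its 2 Lhx8 groups, 1.20, 1.14 and 0.334 CPM in controls and 1.15, 0.312 and 0.603 in knockouts, overlapped. The ratio of Figla knockouts to controls was 78.8 (counting interval 26.6 to 385, with 3 counts in controls) and the difference was 6.59 ± 0.88 (edgeR, adjusted p = 0.000236). C1ql1, a secreted C1q-like protein of synapses, and Lef1, a transcription factor of WNT signalling, rose without Figla with effects of 3.34 and 2.24 and had differences of 2.41 and 1.27. Of these 5 genes, Fezf2 was the one called in each of the 12 fits with 1 library left out.

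Genes that moved in opposite directions included Gm42765, Dennd1c, Col9a3, Id1 and Cdh1, lower without Figla and higher without Lhx8, and Bend4, the other way round. Id1, an inhibitor that binds helix-loop-helix proteins and keeps them from DNA, stood at 119, 92.5 and 90.7 CPM in Figla controls and 44.7, 54.1 and 51.6 in Figla knockouts, and at 156, 207 and 122 CPM in Lhx8 controls and 438, 604 and 411 in Lhx8 knockouts. Neither pair of groups overlapped, and they moved apart: the Figla effect was -1.03 ± 0.13, the Lhx8 effect 1.52 ± 0.21 and the difference -2.55 ± 0.25 (edgeR, adjusted p = 2.02e-05). Id1 was the called member of 7 tested E protein and Id genes, against 0.493% called over all genes tested. Id3 (-1.20, edgeR adjusted p = 0.0891), Id4 (-1.05, adjusted p = 0.59) and Id2 (-0.46, adjusted p = 0.54) had values on the same side, and Tcf3, Tcf4 and Tcf12, which encode the E proteins, had differences of 0.13, 0.01 and -0.08. Dennd1c, a regulator of RAB GTPases, stood at 2.78, 1.74 and 2.68 CPM in Figla controls and 1.23, 0.809 and 0.689 in Figla knockouts, and at 0.902, 0.935 and 1.33 CPM in Lhx8 controls and 9.06, 24.2 and 18.8 in Lhx8 knockouts. Its groups did not overlap in either set, and its difference was -5.39 ± 0.57 (edgeR, adjusted p = 1.25e-05). Cdh1, which encodes E-cadherin, fell from 26.8, 23.2 and 32.6 CPM to 18.9, 15 and 21.0 without Figla and rose from 27.5, 37.1 and 28.9 CPM to 62.1, 102 and 55.3 without Lhx8. Its difference was -1.78 ± 0.29 (edgeR, adjusted p = 0.00280).

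Col9a3, a collagen chain, had effects of -1.52 without Figla and 2.00 without Lhx8, and it is overlapped on the other strand by Tcfl5, which carried more counts. Bend4, of the BEN domain family, stood at 43.8, 25.3 and 28.6 CPM in Figla controls and 52.6, 61.4 and 56.8 in Figla knockouts, and at 8.82, 11.3 and 10.5 CPM in Lhx8 controls and 5.21, 5.20 and 3.98 in Lhx8 knockouts. It rose without Figla and fell without Lhx8, with a difference of 1.93 ± 0.30 (edgeR, adjusted p = 0.00203).

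**Figure D4:**
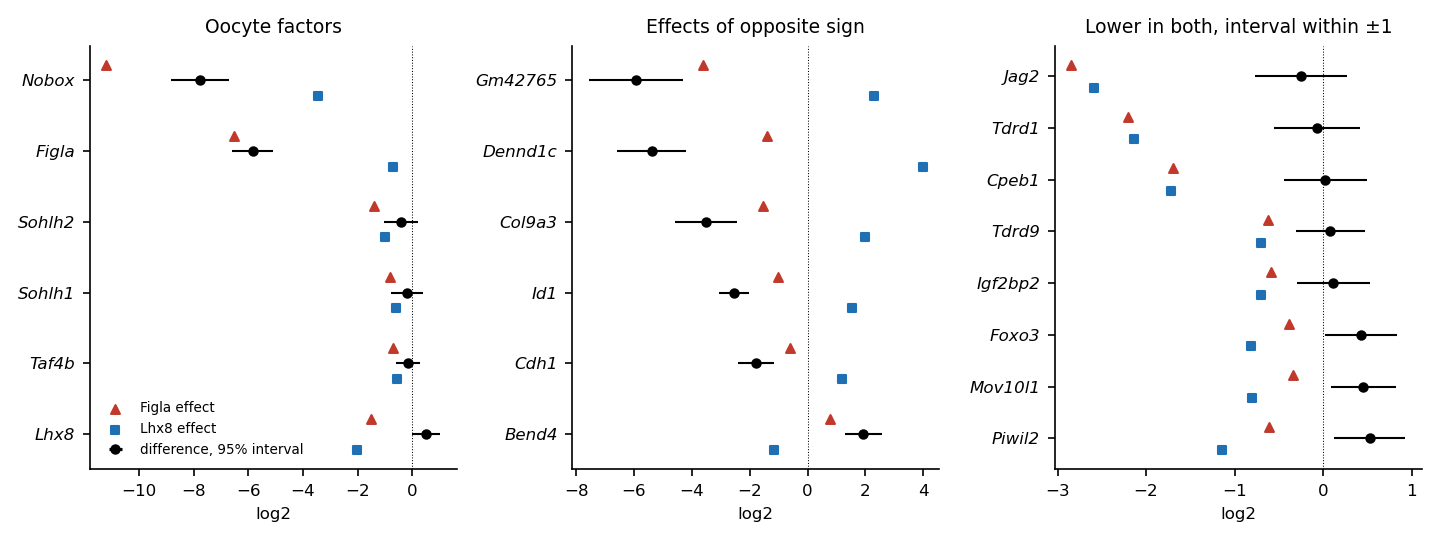
Figla effect (triangles), Lhx8 effect (squares) and their difference with its 95% interval (circles), all as log2 values, for 6 oocyte factors, 6 genes with effects of opposite sign and 8 germ cell genes lower in both sets. In the right panel each interval lies between -1 and 1; Nobox and Figla are the 2 factors whose intervals lie far below 0.

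Several germ cell genes fell by similar amounts in both sets. Among list genes lower in both sets with an interval inside -1 to 1, Tdrd1, a tudor protein of the piRNA pathway that silences transposons, had effects of -2.21 without Figla and -2.14 without Lhx8 and a difference of -0.07 (95% interval -0.56 to 0.42). Cpeb1, which controls translation of stored messenger RNA, had -1.70 and -1.72 and a difference of 0.02 (-0.44 to 0.49). Jag2, a Notch ligand, had -2.84 and -2.59 and a difference of -0.25 (-0.77 to 0.27). Tdrd9 and Igf2bp2 had differences of 0.08 and 0.11. Mov10l1 and Piwil2, both of the piRNA pathway, had 0.46 (0.09 to 0.82) and 0.53 (0.13 to 0.93), with the deeper value without Lhx8 and no call. The piRNA and tudor list as a whole had 0 called of 18 tested and a median difference of 0.05, the synaptonemal complex list 0 of 11 and -0.10, and the list of meiotic cohesin, break and crossover genes 0 of 22 and 0.14, against a median of -0.04 over all genes tested.

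Markers of other cells of the ovary had no called difference. Against 0.493% called over all genes tested, a count of 0 in lists of this size, germ cell lists included, is no result about their members. Of 18 granulosa markers tested, 13 had an interval within -1 to 1 and the median difference was 0.01, and of 13 stromal markers 11 did and the median was -0.04. The summed level of the granulosa markers ran from 2423 to 3140 CPM in Figla controls and 3699 to 3943 in Figla knockouts, and from 1939 to 2158 in Lhx8 controls and 2509 to 2819 in Lhx8 knockouts, so it was higher in the knockouts of both sets with no overlap. This was not particular to granulosa markers. It held as well for the summed stromal, endothelial, macrophage and mesonephric duct markers. Surface epithelium, Sertoli and steroidogenic markers overlapped in at least 1 set. Sertoli markers had 0 called of 9 and a median of -0.38. Dmrt1, a regulator of testis fate that germ cells express as well, had the widest difference of that list, -4.06, with a Figla effect of 0.48 and an Lhx8 effect of 4.54 (edgeR, adjusted p = 0.0838). Immediate early genes, which respond within minutes to many stimuli, had 0 called of 11 and a median of -0.67, erythroid markers 0 of 5 and -0.83, and proliferation genes 0 of 16 and -0.33. Summed levels of the erythroid markers spread from 153 to 1123 CPM in Figla controls and 209 to 925 in Figla knockouts, and from 4076 to 6163 CPM in Lhx8 controls and 5018 to 12689 in Lhx8 knockouts. The part of these markers in the called differences was not tested.

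Promoters of called genes were read for the letters that each class of factor is known to bind, and 5 genes are shown, 3 from the class that fell more without Figla and 2 from the class that fell more without Lhx8. Sequences are from RefSeq on GRCm38.p6, 250 bases upstream of the annotated start on the gene's own strand, with CAGGTG (or its reverse complement CACCTG) and TAATTA or TAATTG (or CAATTA) in capitals. CAGGTG is 1 of the forms of CANNTG, and TAATTA and TAATTG hold the homeodomain core. Other forms of CANNTG, such as CAGCTG and CACGTG, are left in lower case. Intervals are chr6:43309555-43309804 on the minus strand for Nobox, chr12:105222738-105222987 on the minus strand for Tcl1, chr4:135759465-135759714 on the plus strand for Myom3, chr15:100761497-100761746 on the plus strand for Slc4a8, and chr11:113710018-113710267 and chr11:113709527-113709776 on the minus strand for the 2 starts of Cpsf4l.
Nobox: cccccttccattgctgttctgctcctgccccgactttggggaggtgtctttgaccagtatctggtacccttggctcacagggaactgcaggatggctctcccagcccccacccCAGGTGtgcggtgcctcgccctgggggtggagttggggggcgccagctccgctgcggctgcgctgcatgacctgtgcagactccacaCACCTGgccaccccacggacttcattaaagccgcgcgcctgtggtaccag
Tcl1: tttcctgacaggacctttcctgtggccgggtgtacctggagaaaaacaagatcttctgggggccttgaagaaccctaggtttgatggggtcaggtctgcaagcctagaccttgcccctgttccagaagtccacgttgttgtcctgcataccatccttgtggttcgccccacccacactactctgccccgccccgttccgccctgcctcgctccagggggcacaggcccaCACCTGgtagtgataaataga
Myom3: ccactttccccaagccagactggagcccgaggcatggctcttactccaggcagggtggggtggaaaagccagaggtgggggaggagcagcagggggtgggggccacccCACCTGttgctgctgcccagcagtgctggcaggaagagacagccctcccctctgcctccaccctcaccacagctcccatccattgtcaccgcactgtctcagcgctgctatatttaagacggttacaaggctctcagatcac
Slc4a8: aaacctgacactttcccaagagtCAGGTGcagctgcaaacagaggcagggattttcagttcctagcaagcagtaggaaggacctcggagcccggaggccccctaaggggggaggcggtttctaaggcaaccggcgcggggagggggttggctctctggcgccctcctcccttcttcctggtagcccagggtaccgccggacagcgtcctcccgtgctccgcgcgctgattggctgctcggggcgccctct
Cpsf4l: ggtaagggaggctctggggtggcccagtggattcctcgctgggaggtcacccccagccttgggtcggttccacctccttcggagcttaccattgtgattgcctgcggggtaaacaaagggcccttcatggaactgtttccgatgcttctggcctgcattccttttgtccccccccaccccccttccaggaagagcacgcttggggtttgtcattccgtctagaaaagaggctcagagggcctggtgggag
Cpsf4l other start: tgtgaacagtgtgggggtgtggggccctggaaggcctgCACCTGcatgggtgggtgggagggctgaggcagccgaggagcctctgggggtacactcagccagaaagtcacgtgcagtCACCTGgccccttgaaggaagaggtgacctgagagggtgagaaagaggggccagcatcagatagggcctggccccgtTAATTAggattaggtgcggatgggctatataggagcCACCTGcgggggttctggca

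The Nobox window held CAGGTG and CACCTG, 137 and 50 bases before the start, the Tcl1 window CACCTG 21 bases before it and the Myom3 window CACCTG 142 bases before it. Slc4a8, which fell more without Lhx8, also held CAGGTG, 227 bases before its start. The first Cpsf4l window held neither motif, and the second held CACCTG 3 times and TAATTA once, 56 bases before that start. Over the 300-base windows from 250 bases before to 50 after the start, 41 of the 70 called genes had a promoter in the table, among them 25 of the 42 that fell more without Figla. CAGGTG on either strand was in 16 of 32 promoters of that class (50.0%), in 18.1% of promoters of the genes tested and in 20.2% of all 32851 promoters. The classes that fell more and rose more without Lhx8 held it in 4 of 9 promoters each (44.4%), so the share was above the background in them as well. The class that rose more without Figla held it in 1 of 6 (16.7%). Some genes have several promoters. By gene, it was in 15 of 25 (60.0%) that fell more without Figla and 4 of 7 (57.1%) that fell more without Lhx8. It was in 2 of 6 genes (33.3%) that rose more without Lhx8, 1 of 3 (33.3%) that rose more without Figla and 21.0% of tested genes. CANNTG was in 75% of the promoters of genes that fell more without Figla, 64.2% of those of tested genes and 72.3% of all. The 2 other E-box forms counted were not above the tested genes in that class. CAGCTG was in 3 of its 32 promoters (9.38%) against 15.7%, and CACGTG in 3 of 32 (9.38%) against 9.76%. In the class that fell more without Lhx8 they were in 1 of 9 (11.1%) and 2 of 9 (22.2%). TAATTA or TAATTG was in 3 of 32 promoters (9.38%) of genes that fell more without Figla, 2 of 9 (22.2%) of genes that fell more without Lhx8, 7.15% of those of tested genes and 12.4% of all. These are matches of letters with no test and no evidence of binding.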

How the data were processed

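Whole-ovary messenger RNA was sequenced in 12 P0 libraries, and 8 embryonic libraries were used for a description only. The submitters' processing notes name cutadapt, HISAT2 and GRCm38.p5, with versions of the first 2 not given in the sources used here. The authors deposited raw counts per gene, counted by featureCounts 1.6.0 against GENCODE M12 without regard to strand, per the file headers. A read of overlapping genes on opposite strands, or of near-identical paralogs, can thus be placed uncertainly, and 12 of the 70 called genes are overlapped by a gene with at least 100 counts. Of 49585 gene IDs, 49326 matched a symbol in the reference tables. Each knockout was fitted against its controls in edgeR 4.0.16 (R 4.3.3) with filterByExpr (minimum count 10, minimum total 15), TMM scaling and the quasi-likelihood test. The standard error was the size of the log2 fold change over the root of F. The difference of the 2 effects was tested with a moderated t statistic with Satterthwaite degrees of freedom and Benjamini-Hochberg adjustment over 14185 genes, at 0.05. A group without counts entered at a floor of 3 counts over the group, a ratio resting on 1 to 3 counts is given with its 95% counting interval, and both cover counting error only. No pair of P0 replicates was a duplicate (chi-square per degree of freedom 6.62 to 37.8 over 12 pairs). On simulated counts for this comparison (13828 genes) the test recovered 50.0% of 2-fold and 96.0% of 4-fold differences, with 14 false among 160 calls, and 4.91% of unchanged genes had p under 0.05. The false share of the calls was above the 0.05 set for the test. Changes were placed in the Figla set only, in genes with many control counts and no strong shared effect. Recovery among genes with few counts or deep shared falls was not measured. Named genes were the oocyte factors, the called genes of each class with the largest differences that were kept in every fit with 1 library left out (unnamed transcripts left out), called list members, genes of opposite sign, list genes with equal falls and the zona genes. Some called genes are not reported here. Other called genes are given for their class or as those nearest the threshold, and were chosen after their values were seen. The members and the 32 gene lists were chosen with earlier results of these data known. Alternatives were RLE scaling, no filter, DESeq2 1.42.0, limma-voom 3.58.1, 1 model of all 12 libraries, centring, a replicate block, other label groupings, no floor, a minimum difference and leaving out each library. The embryonic fit and the counts without Lhx8 knockout replicate 2 were added later.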

Additional observations from a re-analysis of the deposited data

Results flagged for a closer look

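In 6 genes given here the knockout effects passed the threshold in both sets with opposite signs, and the test of the difference itself was called (edgeR estimates, adjusted p from 1.25e-05 to 0.00280). The Figla effect minus the Lhx8 effect was -5.94 for Gm42765, -5.39 for Dennd1c, -3.52 for Col9a3, -2.55 for Id1, -1.78 for Cdh1 and 1.93 for Bend4. Gm42765, an unnamed transcript on chromosome 5, stood at 3.20, 1.74 and 1.86 CPM in Figla controls and 0, 0.323 and 0.197 in Figla knockouts, and at 2.00, 0.935 and 3.00 CPM in Lhx8 controls and 5.21, 13.4 and 11.8 in Lhx8 knockouts. All 6 kept their call in all 12 fits with 1 library left out. Kit and knockout cannot be told apart in these differences.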

How the results depend on the processing

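Calls with the Figla effect below and above the Lhx8 effect numbered 55 and 15. They were 194 and 72 with no filter on low counts, which tested 25536 genes and kept all 55 and 15, 70 and 27 with DESeq2, and 53 and 24 with the 4 Figla libraries whose labels agree. Leaving out 1 library gave 35 to 85 calls below and 8 to 27 above, with the count moved over 1.5 times without Lhx8 control replicate 1 (35 and 10), Lhx8 control replicate 3 (39 and 8), Lhx8 knockout replicate 1 (85 and 21) and Figla control replicate 3 (57 and 27). RLE scaling, limma-voom, 1 model of the 12 libraries, centring and no floor stayed within 1.5 times. A minimum difference of 1 left 51 and 14 calls, all of them main calls, so it is a part of the same result and no separate check.

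Same-numbered Lhx8 control and knockout libraries had correlations of deviations of -0.296, 0.0608 and 0.0665. Those of libraries with different numbers ran from -0.311 to 0.233. With 3 samples a group, these values cannot decide whether the replicate numbers pair the samples. The replicate block in the Lhx8 set gave 54 and 15 calls, and 49 and 12 of them were among the 55 and 15.

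With both sets grouped by title, 9 and 16 genes were called none of them among the 55 and 15 with the same sign, and with the Lhx8 set alone grouped by title, which turns its effects round, 2576 and 2116 were. Reversed values under these 2 groupings, in that order, were 3.54 and 2.57 for Dennd1c, 2.48 and 0.47 for Col9a3, 3.12 and 3.16 for Slc12a8, 1.13 and 0.49 for Id1, 1.16 and 0.56 for Cdh1, -6.75 and -8.44 for Cpsf4l, -3.17 and -3.99 for Dbndd1, -0.91 and -0.36 for Bend4, -1.94 and -1.86 for Slc4a8, and -1.02 and -0.78 for Spata33. Both by title reversed Lin28a (3.06) and Gm42765 (1.32). The Lhx8 set by title reversed Lhx8 (-3.51), Foxo3 (-1.20), Piwil2 (-1.74), Tdrd9 (-1.33), Mov10l1 (-1.14), Cpeb1 (-3.42) and Igf2bp2 (-1.28). No other setting reversed a call of a named gene. Every difference thus rests on the library names being right. In the Figla library named knockout but titled control, Figla stood at 0.175 CPM. In the one named control but titled knockout it stood at 39.5 CPM. Lhx8 stood at 18.1 to 31.0 CPM in the Lhx8 libraries named knockout and at 89.4 to 101 CPM in those named WT. The cause of the label conflict was not tested. Depth limits genes at or near 0 in both knockouts, such as Zp1, whose differences cannot be placed.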

Other observations

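The Figla ovaries at embryonic day 18.5, which the difference did not use, gave a second reading of the Figla side. Of 8 embryonic libraries, 4 had titles that disagree with their names. Libraries 1 and 2 of each group were near-identical (chi-square per degree of freedom 1.12 and 1.32, against 17.0 to 62.3 for the other pairs within groups) and were summed, leaving 3 samples a group. Of the 42 genes that fell more without Figla at P0, 33 passed the filter, and all 33 had an embryonic effect below 0, with a median of -3.07 against 0.02 over the genes tested. The embryonic library labelled control replicate 3 held less of many oocyte transcripts than the other controls, such as Nobox at 2.15 CPM against 75.2 and 111. Without it all 42 passed the filter, all 42 were below 0 and the median was -4.02. That library was left out for low levels of transcripts such as Nobox, itself among the 42. Some of the 42, such as Zp2 with 0 CPM in every embryonic knockout sample, passed the filter through the controls alone. For such genes a value below 0 was set by the filter and adds no separate reading. The 13 genes that rose more without Lhx8 had a median of -0.08 with 7 below 0, and 9 of the 10 that fell more without Lhx8 passed the filter with a median of 0.02 and 4 below 0. Of the 5 that rose more without Figla, 4 passed, all 4 above 0 with a median of 0.62, or 3 above 0 with a median of 0.64 without that control library. Over all genes tested 46.8% were below 0. Embryonic and P0 Figla libraries share a kit, and these values are a description with no test.

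Some germ cell and follicle genes could not be compared because 1 set held too few counts. Stra8, which licenses entry into meiosis, had 14 counts in Lhx8 controls and 543 in Lhx8 knockouts, at 0.833, 34.0 and 25.1 CPM in the 3 knockouts, and 5 and 9 counts in Figla controls and knockouts. Sox2, a pluripotency factor, had 13 counts in Figla controls and 106 in Figla knockouts and 1 and 9 in the Lhx8 set. Pou5f1 had 370 and 3 counts in the Figla set and 26 and 0 in the Lhx8 set. Foxl2, a granulosa factor, had 4625 counts in Figla controls and 2 in Lhx8 controls, and Notch1 had 2377 and 9, so genes of clear expression in the whole-transcript libraries were nearly absent from the 3' libraries.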
